A study of Mus musculus with 17 samples.

Results

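The comparison described here is of whole-cell RNA after an siRNA against Nmd3 with whole-cell RNA after a scramble siRNA. It takes 6 of the 17 libraries of the study, 3 for each siRNA, chosen by the fraction and siRNA in their labels. All came from 1 line of mouse embryonic stem cells, Rpl31-FTA E14Tg2a.4, kept in serum with leukemia inhibitory factor. Its ribosomes can be tagged because Rpl31, a protein of the large subunit, bears FLAG-TEV-AviTag. Each lysate was made for a purification of ribosomes at the endoplasmic reticulum (ER) by ALIBi, a proximity biotinylation system, and part of it was set aside beforehand for the whole-cell library of polyA RNA. The scramble controls therefore carry the same tagged ribosomes as the knockdown. The siRNA sequences, their dose and the time after transfection are not given in the sources used here. The labels call the replicates biological, without saying whether they were separate cultures, so the p-values measure the spread between these samples only.

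Nmd3 is the adaptor that joins the large (60S) ribosomal subunit to the exportin Xpo1 (Crm1) for its passage out of the nucleus. In the cytoplasm it is one of the last factors to leave the maturing subunit, with the help of the GTPase Lsg1 and the loading of the ribosomal protein Rpl10. Embryonic stem cells divide fast and make ribosomes at a high rate, and in many cells a fault in ribosome assembly is known to act on the p53 pathway through free ribosomal proteins.

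The submitters' labels say that replicate 2 of Nmd3 siRNA in whole-cell RNA stood apart in a principal component analysis and was left out of their work. The tests below therefore compare Nmd3 replicates 1 and 3 with scramble replicates 1, 2 and 3. Whole-cell replicates 1 and 2 of an siRNA against Gnl3 were also in the fit, to share the estimate of spread. The levels of Nmd3 replicate 2 are given beside the tests for the genes described. The 6 libraries held 15.9 to 22.8 M gene counts. Log2 levels of replicate 2 correlated across genes with the retained whole-cell libraries at 0.92 to 0.93, against 0.989 to 0.993 among the others. Its departure followed the length of the coding sequence. In coding sequences of up to 300 nucleotides the median gene of replicate 2 was 0.93 above the scramble mean on the log2 scale, and in those over 6000 nucleotides the same difference was -1.63. Levels are given as counts per M gene counts (CPM). Replicates 1 and 3 stayed within 0.05 of the scramble mean in every length class.

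**Figure D1:**
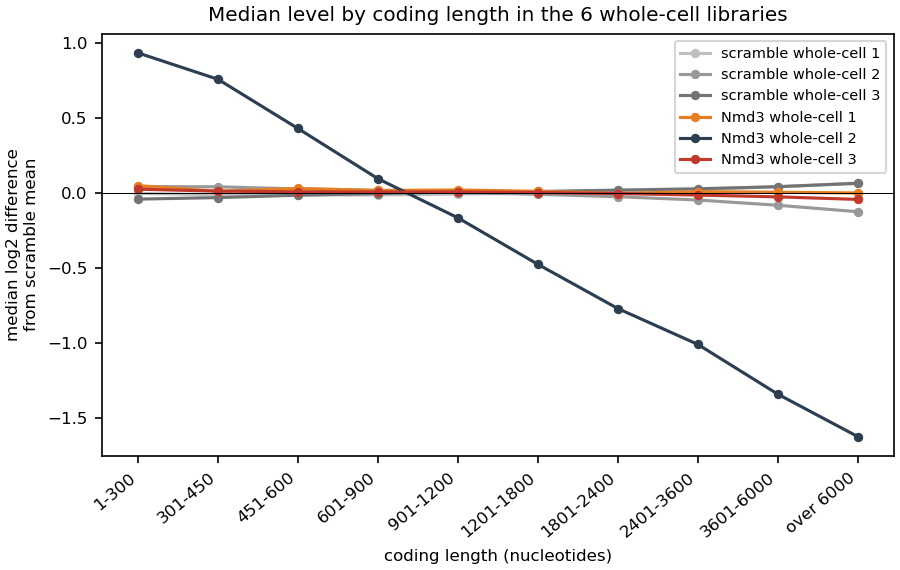
Median difference from the scramble mean (y axis, log2 of CPM plus 0.5) against coding length (x axis, nucleotides) in each of the 6 whole-cell libraries. Nmd3 replicate 2 runs from 0.93 in the shortest class to -1.63 in the longest, while the other 5 libraries lie between -0.13 and 0.07.

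Markers of embryonic stem cells were present in every library. Pou5f1, which encodes the pluripotency factor Oct4, was at 1238, 1276 and 1253 CPM in scramble replicates 1, 2 and 3. It was at 1405, 1137 and 1322 CPM in Nmd3 replicates 1, 2 and 3. Sox2 lay between 464.3 and 504.1 CPM and Nanog between 512.4 and 594.2 CPM over the 6 libraries. Esrrb, an orphan nuclear receptor of naive pluripotency, was at 509.9 to 535.6 CPM in 5 libraries and at 251.1 CPM in Nmd3 replicate 2. Of 40 tested pluripotency genes none passed the threshold in either direction, and their median log2 difference was 0.02 against 0 over all genes. The pluripotency list summed to 15890 to 16070 CPM in scramble and to 16660, 17260 and 16120 CPM in Nmd3 replicates 1, 2 and 3. Among the marker lists of other cell types, the primed epiblast, germ layer and neural list was below scramble in both retained knockdown libraries, at 988.4 and 1012 CPM against 1073 to 1107 CPM. Trophoblast markers summed to 193.4 to 210.3 CPM in scramble and to 190.7 and 191.8 CPM in replicates 1 and 3. Fibroblast markers summed to 587.2 to 672.1, 600.4 and 589.2 CPM, primitive endoderm markers to 755.8 to 844.8, 849.7 and 832.5 CPM, and 2-cell-like markers to 123.3 to 127.5, 126 and 127.9 CPM, in the same order. In replicate 2 the epiblast, trophoblast, fibroblast, primitive endoderm and 2-cell-like lists summed to 547.7, 140.1, 410.6, 285 and 148.1 CPM. The trophoblast marker Elf5 was at 0 in every scramble library and at 0.19, 0.35 and 0.06 CPM in Nmd3 replicates 1, 2 and 3. These are at most 8 counts in any of the 6 libraries, and Elf5 was too low to be tested. Of 12 tested trophoblast genes, 4 (33.3%) were above all scramble libraries in both retained knockdown libraries and 1 (8.3%) was below. The shares of all genes were 12.6% and 12.2%. The part of such cells in the results was not tested.

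The siRNA lowered its target. Nmd3 (ENSMUSG00000027787.15) was at 153, 153.8 and 150.2 CPM in the scramble libraries (mean 152.3 ± 1.88, SD, n = 3). It was at 43.7 and 43.2 CPM in Nmd3 replicates 1 and 3, and at 72.3 CPM in replicate 2. All knockdown libraries lay below all scramble libraries, and replicate 2 kept the most Nmd3 mRNA. The fitted level was 28.4% of scramble, a log2 difference of -1.81 (SE 0.07, edgeR adjusted p = 7.97e-19). With replicate 2 in the fit the difference was -1.3 (SE 0.32, adjusted p = 0.627). In bulk RNA, fewer cells with the transcript and less of it per cell cannot be told apart.

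Of 17490 genes tested, 29 (0.166%) passed the threshold of an adjusted p under 0.05, 11 higher (0.0629%) and 18 lower (0.103%). Of the called genes only Nmd3 changed by more than 2-fold. The 17 others that fell did so by 19.2% to 38.2%, and the 11 that rose did so by 21.6% to 71.6%. An unadjusted p under 0.05 was reached by 1694 genes. Without the Gnl3 libraries in the fit, 17 genes passed the threshold. With replicate 2 in the fit, edgeR called 0 of 17642 genes, with 654 at an unadjusted p under 0.05. DESeq2 called 1 gene, Mroh1, and limma with a weight for each library called 3, Nmd3, Mroh1 and Impact. That weight was 0.03 for Nmd3 replicate 2, against 1.04 to 2.34 for the others, so replicate 2 hardly counted in the limma fit. The count also depended on single retained libraries. It was 8 without Nmd3 replicate 1 and 1024 without Nmd3 replicate 3, where replicate 1 stands alone and is taken to vary like the other groups. The same limit holds without Nmd3 replicate 1, where replicate 3 stands alone. Per gene, the chi-square between the counts of Nmd3 replicates 1 and 3 was 8.97, against 2.08 to 4.03 between scramble libraries. The count of called genes was 10 without scramble replicate 1, 18 without scramble replicate 2 and 10 without scramble replicate 3. Of the 29 genes, 7 remained called without Nmd3 replicate 1, 28 without Nmd3 replicate 3, and 10, 15 and 10 without scramble replicates 1, 2 and 3. Nmd3, Mroh1, Prkar2a, Impact and the antisense gene Gm45774 were called in all 5 of these fits. Rhox5 was called in none of them, and Zhx1, Dnajb14, Slc27a2, Ptpn4, Cd24a, Fam136a, Ergic1, Txlna, B3gnt8, Id1 and Aard in 1 of them.

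**Figure D2:**
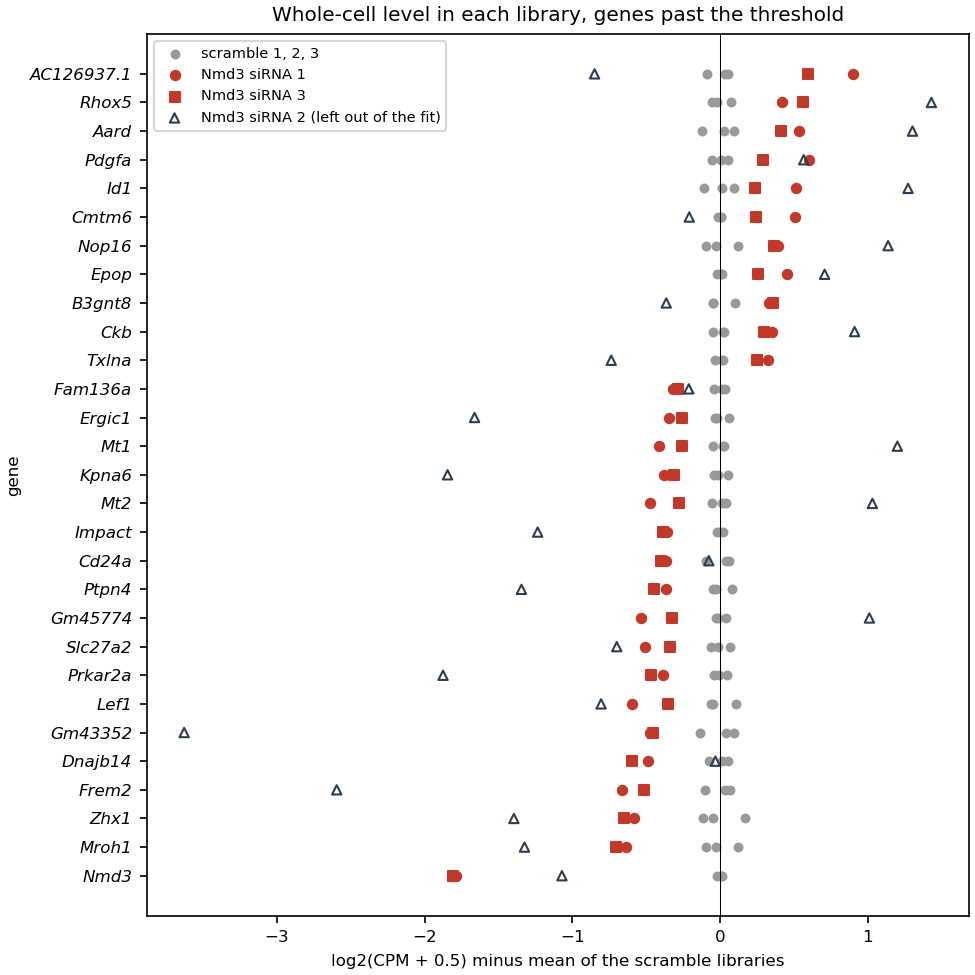
Level of each of the 29 called genes in each of the 6 whole-cell libraries, as log2(CPM + 0.5) minus the mean of the scramble libraries (x axis), genes ordered by fold change (y axis). Nmd3 replicates 1 and 3 lie outside the range of the scramble libraries for every gene, while replicate 2 lies on the other side of it for genes such as Mt1, Mt2 and Cmtm6.

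Replicates 1 and 3 both lay above every scramble library in 12.6% of all tested genes and both below in 12.2%, so a lack of overlap is common in these 5 libraries. Replicate 2 lay below every scramble library in 63.4% of tested genes and above in 27.4%. Among the 28 called genes other than Nmd3, it lay outside the scramble range in the called direction in 19, in the other direction in 7 and within the range in 2. Set against the median of its own coding-length class, replicate 2 moved in the called direction in 17 of the 25 genes with a class. As many genes of a class lie above its median as below, so much of this count is given in advance. It was not tested against that share.

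For the called genes named next the fitted size moved by over 1.5 times with replicate 2 in the fit, all with adjusted p-values between 0.627 and 0.847. Log2 differences became larger for Frem2 (-0.99), Prkar2a (-0.7), Kpna6 (-0.63), Ergic1 (-0.56), Ckb (0.76), Epop (0.68), Nop16 (0.91), Id1 (0.98), Aard (1.053), Rhox5 (1.14) and the antisense Gm43352 (-0.98). They became smaller for Dnajb14 (-0.16), Cd24a (-0.09), Fam136a (-0.1), Txlna (0.12) and the antisense AC126937.1 (0.47). The sign turned for Mt1 (0.66), Mt2 (0.54) and Gm45774 (0.51).

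The fallen gene with the next largest fold change was Mroh1 (ENSMUSG00000022558.17). Its scramble libraries were at 35.6, 37.3 and 41.3 CPM, and Nmd3 replicates 1, 2 and 3 at 24.3, 14.9 and 23.1 CPM. The groups did not overlap, and the log2 difference was -0.69 (SE 0.1, adjusted p = 2.90e-04). In replicate 2 alone it was -1.32, near the median of -1.34 for its length class in that library. Exons of Mroh1 overlap those of Bop1 on the other strand, a factor of 60S assembly. Bop1 was at 155.3 to 164 CPM in scramble and at 170.9 and 164.9 CPM in replicates 1 and 3, a difference of 0.06 (SE 0.06, adjusted p = 0.775).

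Impact encodes a protein that binds Gcn1 and so restrains the kinase Gcn2, which phosphorylates the initiation factor eIF2 when amino acids run short. Its scramble libraries were at 251, 243.8 and 247 CPM. In Nmd3 replicates 1, 2 and 3 it was at 192.5, 104.8 and 189 CPM. All 3 knockdown libraries lay below the lowest scramble library, by more than the range of scramble. The log2 difference was -0.38 (SE 0.06, adjusted p = 5.12e-04), and -0.5 (SE 0.14, adjusted p = 0.627) with replicate 2. Impact was the only called gene among 51 translation factors and their regulators, whose median difference was 0.

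Prkar2a, the type II alpha regulatory subunit of protein kinase A, was at 107.1, 104.7 and 111.1 CPM in scramble. It was at 82.3, 29 and 77.9 CPM in Nmd3 replicates 1, 2 and 3, below scramble in all 3. The difference was -0.43 (SE 0.06, adjusted p = 5.12e-04). Kpna6, an importin alpha that carries proteins into the nucleus, was at 129.1, 131.4 and 137.9 CPM in scramble and at 101.8, 36.6 and 106.9 CPM after Nmd3 siRNA. It too was lower in every knockdown library (-0.35, SE 0.06, adjusted p = 0.00403).

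Lef1, a DNA-binding partner of beta-catenin that carries the Wnt signal to genes, fell. Scramble libraries were at 75.2, 74.3 and 84 CPM, and Nmd3 replicates 1, 2 and 3 at 51.2, 44.3 and 60.8 CPM. No knockdown library reached the lowest scramble library. The difference was -0.48 (SE 0.08, adjusted p = 0.00348). The antisense gene Gm43352, opposite Lef1, was also called (-0.48, SE 0.1, adjusted p = 0.0396). Its level was 0.301 to 0.352 of that of Lef1 in the 5 retained libraries, and 0.036 in replicate 2. Whether counting used strand is not stated, so reads of a gene and of its antisense partner cannot be told apart. Lef1 was the only called gene of 28 tested genes of the Wnt pathway (median 0.01).

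The remaining called genes that fell have varied roles. Zhx1, a zinc finger and homeobox repressor, was at 13.2, 10.7 and 11.3 CPM in scramble and at 7.62, 4.13 and 7.27 CPM in Nmd3 replicates 1, 2 and 3 (-0.65, SE 0.14, adjusted p = 0.0472). Frem2, a basement membrane protein, was at 21.8, 19.9 and 22.5 CPM against 13.3, 3.12 and 14.8 CPM (-0.61, SE 0.12, adjusted p = 0.0117). Both were below scramble in all knockdown libraries. In replicate 2 alone the log2 differences were -1.4 and -2.6, where the medians of their length classes were already -1.01 and -1.63. Dnajb14, a J-domain co-chaperone of the ER membrane, was at 16.3, 15.3 and 16.7 CPM against 11.3, 15.7 and 10.5 CPM. It was thus lower in replicates 1 and 3 (-0.57, SE 0.12, adjusted p = 0.0371), while replicate 2 lay within the scramble range. Cd24a, a surface glycoprotein anchored by a lipid, showed the same pattern, with 41.7, 42.3 and 37.9 CPM in scramble and 31.4, 38.5 and 30.6 CPM after Nmd3 siRNA (-0.39, SE 0.09, adjusted p = 0.0472). It was the only called gene of 47 tested cell surface receptors and adhesion proteins. In replicate 2, Slc27a2, Ptpn4, Fam136a and Ergic1 were at 23.1, 12.1, 120.4 and 25.5 CPM, all below their scramble libraries. Slc27a2, an acyl-CoA synthetase for very long fatty acids, differed by -0.43 (SE 0.09), the tyrosine phosphatase Ptpn4 by -0.42 (SE 0.09), the mitochondrial Fam136a by -0.31 (SE 0.06) and Ergic1, which cycles between ER and Golgi, by -0.31 (SE 0.07). Their adjusted p-values were 0.0316, 0.0468, 0.0316 and 0.0495. In replicate 2 alone the log2 differences were -0.7, -1.34, -0.21 and -1.66, in that order. The medians of their length classes there were -0.77, -1.01, 0.76 and 0.095.

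Both metallothionein genes of these cells fell in replicates 1 and 3. Metallothioneins are small cysteine-rich proteins that bind zinc and copper, and their genes are induced through metal response elements, short sites bound by the zinc-sensing factor Mtf1. The RefSeq promoter windows of Mt1 (chr8:94178839-94179138, plus strand) and Mt2 (chr8:94172368-94172667, plus strand) are shown because these neighbours moved together in every library. The build is GRCm38.p6, and a window runs from 250 bases before to 50 bases after the start of the gene. Capitals mark each match to the core letters TGCGCNC or TGCACNC, searched on both strands; these cannot match at the same place, since they differ in the fourth letter.
Mt1: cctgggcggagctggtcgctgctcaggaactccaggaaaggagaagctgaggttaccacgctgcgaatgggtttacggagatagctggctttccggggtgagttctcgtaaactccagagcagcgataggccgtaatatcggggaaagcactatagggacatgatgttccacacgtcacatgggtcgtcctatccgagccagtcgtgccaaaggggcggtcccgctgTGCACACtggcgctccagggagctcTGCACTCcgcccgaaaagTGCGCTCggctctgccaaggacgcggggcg
Mt2: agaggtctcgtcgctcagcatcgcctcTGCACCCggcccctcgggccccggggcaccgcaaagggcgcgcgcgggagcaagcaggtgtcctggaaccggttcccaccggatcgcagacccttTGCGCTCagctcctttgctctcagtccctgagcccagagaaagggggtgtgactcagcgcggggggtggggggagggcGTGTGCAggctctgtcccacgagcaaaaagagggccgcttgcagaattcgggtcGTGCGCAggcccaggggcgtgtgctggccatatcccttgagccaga
The Mt1 window held 3 matches and the Mt2 window 4. They lay at 23, -2 and -20 bases before the start for Mt1 and at 223, 128, 50 and -4 for Mt2. Negative values lie after the start. At least 1 match was present in 25.7% of the 32851 promoter windows of this length and at least 4 in 0.517%. The share with at least 3, the number in Mt1, was not taken. A match is a string of letters and was not tested as a binding site.

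Mt1 was at 206.9, 206.7 and 196.9 CPM in scramble and at 152.6, 468.3 and 169.9 CPM in Nmd3 replicates 1, 2 and 3. Mt2 was at 297, 290.5 and 277.4 CPM against 207.5, 589.7 and 238.2 CPM. Both genes were below every scramble library in replicates 1 and 3 and above every one in replicate 2, by more than any spread within scramble. In the fit of replicates 1 and 3 the difference was -0.34 for Mt1 (SE 0.06, adjusted p = 0.00695) and -0.38 for Mt2 (SE 0.07, adjusted p = 0.0115). With replicate 2 the sign turned, to 0.66 (SE 0.52, adjusted p = 0.637) and 0.54 (SE 0.49, adjusted p = 0.653). The coding sequences of Mt1 and Mt2 fall in the 2 shortest length classes, whose medians in replicate 2 were 0.76 and 0.93. On ER ribosomes, where replicate 2 came from the same lysate, Mt1 was at 217.9, 214.6 and 194.6 CPM after Nmd3 siRNA, against 279.7 and 298.5 CPM in scramble. There all knockdown libraries, replicate 2 included, lay below scramble. The antisense gene Gm45774, opposite Mt2, was at 0.986 to 1.048 of the level of Mt2 in each of the 5 retained libraries and at 1.01 in replicate 2. It differed by -0.43 (SE 0.07, adjusted p = 0.00145), and cannot be told apart from Mt2 here. Mt1 and Mt2 lost their call without Nmd3 replicate 1 (adjusted p = 0.146 and 0.137), and also without scramble replicate 1 or scramble replicate 2.

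Among the genes that rose, Nop16 belongs to the process in which Nmd3 acts, as a nucleolar factor of 60S assembly. It was at 65.1, 72.4 and 62.3 CPM in scramble and at 87.3, 146.9 and 85.7 CPM in Nmd3 replicates 1, 2 and 3. Every knockdown library was higher than every scramble library. The difference was 0.37 (SE 0.07, adjusted p = 0.0117). Nop16 was the only called gene of 58 tested factors of nucleolar and nucleoplasmic 60S assembly. Of these, 16 (27.6%) were above all scramble libraries in both retained knockdown libraries and 3 (5.2%) below, against 12.6% and 12.2% of all genes. The list median was 0.04 in the fit and -0.24 in replicate 2.

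Of 26 tested genes for Nmd3 and its export and release partners, Nmd3 was the only one called, and the median over the list was -0.01. The exportin Xpo1 was at 669.8, 675.4 and 665.1 CPM in scramble and at 666.3, 446.3 and 654.4 CPM in Nmd3 replicates 1, 2 and 3, with a difference of -0.03 (SE 0.05, adjusted p = 0.908). Lsg1, which releases Nmd3 from the subunit, differed by 0.02 (SE 0.06), and Rpl10 by -0.09 (SE 0.06). The anti-association factor Eif6 differed by 0.12 (SE 0.06, adjusted p = 0.481) and its release factor Sbds by 0.06 (SE 0.07). Efl1, the GTPase that works with Sbds, differed by -0.09 (SE 0.08). Dusp12, a phosphatase of late 60S maturation, had the highest value, 0.23 (SE 0.11, adjusted p = 0.481). It was at 46.8 CPM in replicate 1 and at 33.1 CPM in replicate 3, against 31.8 to 35 CPM in scramble, so the groups overlapped. The nuclear GTPase Ran was at 1127, 1214 and 1144 CPM in scramble and at 1340, 2241 and 1163 CPM in Nmd3 replicates 1, 2 and 3 (0.1, SE 0.06). Adjusted p-values of the 25 partners were between 0.407 and 0.976.

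Genes of other steps of ribosome production and translation gave few or no calls. Of 59 genes of the small subunit processome and 40S assembly none was called (median 0.05), with Dhx37 lowest at -0.24 (adjusted p = 0.25) and Pno1 highest at 0.18 (adjusted p = 0.299). Of the 59, 15 (25.4%) were above all scramble libraries in both retained knockdown libraries and 4 (6.8%) below, against 12.6% and 12.2% of all genes. In replicate 2 their median was -0.24. Of 49 large-subunit ribosomal protein genes none was called (median 0), and of 33 small-subunit genes none (median -0.01). The tagged gene Rpl31 differed by -0.29 (adjusted p = 0.777) and Rps3a1 by 0.24 (adjusted p = 0.182). In replicate 2 the median large-subunit gene was 1.18 above scramble and the median small-subunit gene 1.19 above. The median of the shortest length class in that library was 0.93, and the part of coding length in these lists was not tested. None of the 18 tested snoRNA host genes was called (median -0.02).

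The other genes that rose included a growth factor and signalling genes. Pdgfa, a ligand of the PDGF receptor, was at 56.7, 52.6 and 54.9 CPM in scramble and at 83.2, 81.3 and 67 CPM in Nmd3 replicates 1, 2 and 3. It was higher in all 3 knockdown libraries, by 36.5% in the fit (log2 difference 0.45, SE 0.08, adjusted p = 0.00348). Pdgfa lies opposite 6330403L08Rik, at 6.78, 6.17 and 6.59 CPM in scramble and 9.31, 1.053 and 8.45 CPM in Nmd3 replicates 1, 2 and 3 (log2 difference 0.44, SE 0.15, adjusted p = 0.302), and reads of such a pair cannot be told apart without strand. Id1, an inhibitor of bHLH factors that BMP signals induce, was at 67.6, 63.8 and 58.7 CPM against 90.5, 153.6 and 74.8 CPM (0.38, SE 0.08, adjusted p = 0.0316). It was the only called gene of 21 tested genes of BMP signalling, whose median was -0.04. Without Nmd3 replicate 1 the adjusted p of Id1 was 0.359.

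Epop, a protein that links Elongin BC to the Polycomb complex PRC2, was at 275.9, 271.3 and 276.9 CPM in scramble and at 376.2, 449.1 and 328.8 CPM in Nmd3 replicates 1, 2 and 3. Ckb, the brain-type creatine kinase that buffers ATP, was at 206.2, 217.7 and 216.4 CPM against 272.4, 401.7 and 262.8 CPM. Both were higher in every knockdown library (Epop 0.35, SE 0.06, adjusted p = 0.00204; Ckb 0.32, SE 0.06, adjusted p = 0.00551). Rhox5, an X-linked homeobox gene, was at 14, 14.3 and 15.3 CPM against 19.6, 40 and 21.7 CPM (0.5, SE 0.11, adjusted p = 0.0468). Aard was at 19.6, 18.7 and 16.8 CPM against 26.7, 45.9 and 24.5 CPM (0.48, SE 0.1, adjusted p = 0.0316). These too were higher in all 3 knockdown libraries.

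Besides Mt1, Mt2 and Gm45774, replicate 2 went the other way for 4 called genes. Cmtm6, which holds the immune ligand PD-L1 at the cell surface, was at 70.5, 70.6 and 69.6 CPM in scramble and at 100.3, 60.7 and 83.1 CPM in Nmd3 replicates 1, 2 and 3 (0.38, SE 0.07, adjusted p = 0.0102). The glycosyltransferase B3gnt8, opposite Bckdha, was at 45.5, 45.5 and 50.4 CPM against 59.5, 36.5 and 60.6 CPM (0.34, SE 0.07, adjusted p = 0.0453). Bckdha moved the same way, at 56.8, 57.8 and 59.5 CPM against 68.3, 39 and 67.2 CPM (0.22, SE 0.07, adjusted p = 0.271). Reads of this pair cannot be told apart without strand. Txlna, a syntaxin-binding protein, was at 96.7, 93.1 and 96 CPM against 119.4, 57 and 113.3 CPM (0.28, SE 0.06, adjusted p = 0.0401). Cmtm6, B3gnt8 and Txlna were above scramble in replicates 1 and 3 and below it in replicate 2. The largest rise was that of the antisense gene AC126937.1, opposite Def6, at 7.66, 8.47 and 8.35 CPM against 15.7, 4.3 and 12.6 CPM (0.78, SE 0.13, adjusted p = 0.00392). Def6 itself differed by 0.25 (SE 0.09, adjusted p = 0.302), and the ratio of the antisense gene to Def6 was 0.249 to 0.271 in scramble, and 0.395, 0.185 and 0.364 in Nmd3 replicates 1, 2 and 3.

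Over 37 gene lists with 1130 tested members, only Nmd3, Nop16, Impact, Id1, Lef1 and Cd24a were called, and 31 lists held no call. List medians ran from -0.39 to 0.1. Targets of p53, which arrest the cell cycle or lead to apoptosis, had a median of 0.06 with 0 of 50 called. Phlda3, an inhibitor of Akt induced by p53, came nearest: it was at 46.3, 44.3 and 51.1 CPM in scramble and at 63.7, 53.9 and 55.4 CPM in Nmd3 replicates 1, 2 and 3, with a difference of 0.32 (SE 0.08, adjusted p = 0.0922). Of the p53 targets, 16 (32%) were higher in both retained knockdown libraries than in all scramble libraries and 1 (2%) was lower, against 12.6% and 12.2% of all genes. In replicate 2 their median was -0.62. None of 48 targets of ATF4, the factor of the integrated stress response, was called (median -0.03), nor any of 33 genes of ER chaperones and the unfolded protein response (median 0.01), 25 heat shock proteins (0.06), 28 apoptosis regulators (0), 22 hypoxia-responsive genes (-0.08) or 13 interferon-response genes (-0.1).

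Metabolic lists held no call either. In cholesterol biosynthesis the median of 26 genes was 0.1, and 13 (50%) were higher in both retained knockdown libraries than in every scramble library, against 12.6% of all genes, with none lower in both. In replicate 2 the median of the list was -0.54. Fdps, which makes farnesyl pyrophosphate, was at 45.2, 48.6 and 45.7 CPM in scramble and at 60.6, 129.3 and 57.1 CPM in Nmd3 replicates 1, 2 and 3 (0.33, SE 0.08, adjusted p = 0.0785). The sterol oxidase Msmo1 differed by 0.34 (SE 0.08, adjusted p = 0.102). Nuclear genes of the respiratory chain had a median of 0.04, with 24 of 75 (32%) higher in both libraries, and proteasome genes a median of 0.05 with 13 of 32 (40.6%). In replicate 2 these medians were 1.24 and 0.77. Medians were -0.02 for 19 glycolytic genes, 0.03 for 46 lysosomal genes and 0.02 for 50 secreted and matrix genes.

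Mitochondrially encoded mRNAs had the lowest median of the lists, -0.39 over 11 tested, and replicate 1 set that value. Their median difference from scramble was -0.8 in replicate 1, -0.06 in replicate 3 and -0.43 in replicate 2. The cytochrome c oxidase subunit mt-Co1 was at 8274, 8326 and 7748 CPM in scramble and at 5134, 1762 and 7979 CPM in Nmd3 replicates 1, 2 and 3. Replicate 3 lay within the scramble range and the others below it, and the fitted difference was -0.31 (SE 0.21, adjusted p = 0.707). mt-Nd4, a subunit of complex I, was at 1527, 1545 and 1345 CPM against 524.6, 308.3 and 1423 CPM (-0.6, SE 0.46, adjusted p = 0.742). Mitochondrial RNA in all made up 1.86% to 2.03% of gene counts in scramble and 1.15%, 0.769% and 1.92% in Nmd3 replicates 1, 2 and 3. None of the 11 was called.

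Lists of growth and signalling were near 0. The median was 0 for 48 DNA replication genes, 0.01 for 43 mitosis genes, 0.03 for 17 histone genes, -0.04 for 19 genes of Nodal signalling, -0.02 for 28 SRF and YAP responsive genes and -0.04 for 25 immediate early genes, with no call in any. The nuclear-retained long noncoding RNAs had a median of -0.14 over 16. The imprinted Rian was at 219, 219.9 and 214.9 CPM in scramble and at 187.2, 99.6 and 192.8 CPM in Nmd3 replicates 1, 2 and 3 (-0.2, SE 0.06, adjusted p = 0.227). Among lists of other cell types, the medians were 0.1 for 16 genes of 2-cell-like cells, 0.03 for 18 primitive endoderm genes, -0.08 for 25 epiblast, germ layer and neural genes, 0.08 for 12 trophoblast genes and -0.08 for 15 fibroblast genes.

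**Figure D3:**
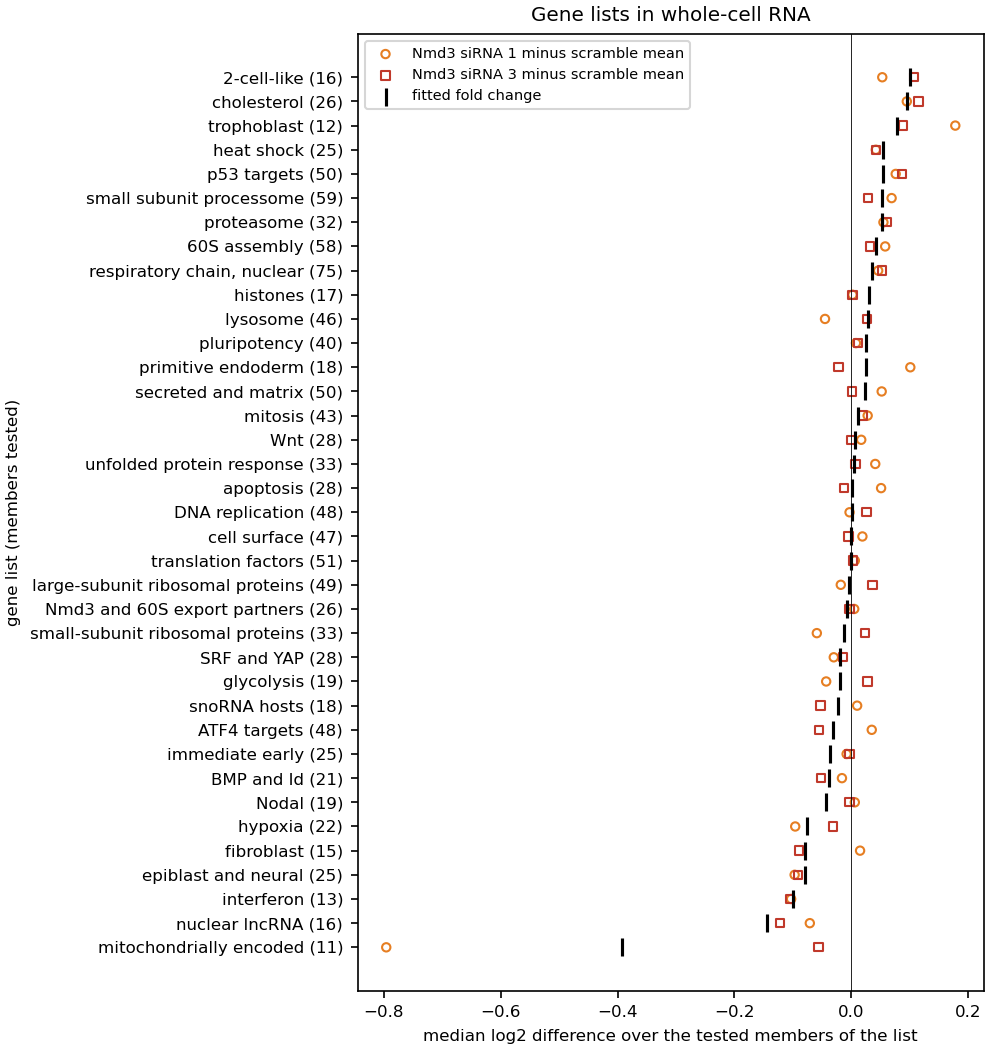
Median log2 difference from scramble over the tested members of each of the 37 gene lists (x axis), for Nmd3 replicates 1 and 3 apart and for the fitted fold change. Mitochondrially encoded mRNAs stand at -0.8 in replicate 1 and -0.06 in replicate 3, and the other list medians of the fit lie between -0.14 and 0.1.

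The study also knocked down Gnl3, a nucleolar GTPase (nucleostemin) linked to 60S assembly, in the same cells. Gnl3 itself was at 279.9, 275.8 and 267.7 CPM in Nmd3 replicates 1, 2 and 3, against 256 to 272 CPM in scramble. Gnl3 siRNA called 142 of 17490 genes against scramble (0.812%), without its replicate 3, which the labels also exclude. Both knockdowns share the scramble libraries, so the difference between them was tested directly, between Nmd3 replicates 1 and 3 and Gnl3 replicates 1 and 2. It called 37 genes (0.212%), 18 higher (0.103%) and 19 lower (0.109%) after Nmd3 siRNA. With both excluded libraries in the fit edgeR called 0, with 1148 at an unadjusted p under 0.05. Without Nmd3 replicate 1 it called 24, without Nmd3 replicate 3 it called 983, and without Gnl3 replicates 1 and 2 in turn 7 and 16.

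Of the 28 genes called against scramble besides Nmd3, 4 differed between the knockdowns. Mroh1 was at 37 and 44.2 CPM after Gnl3 siRNA, near its scramble level, and lower after Nmd3 siRNA by a log2 difference of -0.79 (SE 0.1, adjusted p = 5.01e-05). Impact was at 270 and 262.5 CPM after Gnl3 siRNA, above all scramble libraries, and the difference was -0.49 (SE 0.06, adjusted p = 1.84e-05). Kpna6 was at 127.7 and 128.2 CPM after Gnl3 siRNA, and the difference was -0.3 (SE 0.07, adjusted p = 0.0397). Ckb was at 189.8 and 206 CPM after Gnl3 siRNA, below its Nmd3 siRNA level by 0.42 on the log2 scale (Nmd3 minus Gnl3 0.42, SE 0.06, adjusted p = 3.65e-04). For other genes the values stood side by side without a called difference. Lef1 changed by -0.48 (SE 0.08) after Nmd3 siRNA and by -0.39 (adjusted p = 0.00892) after Gnl3 siRNA, with a difference of -0.09 (SE 0.09). Nop16 rose by 0.37 and by 0.43 (adjusted p = 9.61e-04), with a difference of -0.06 (SE 0.08). Id1 rose by 0.38 and by 0.66 (adjusted p = 8.16e-06), and the difference was -0.28 (SE 0.08, adjusted p = 0.208).

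**Figure D4:**
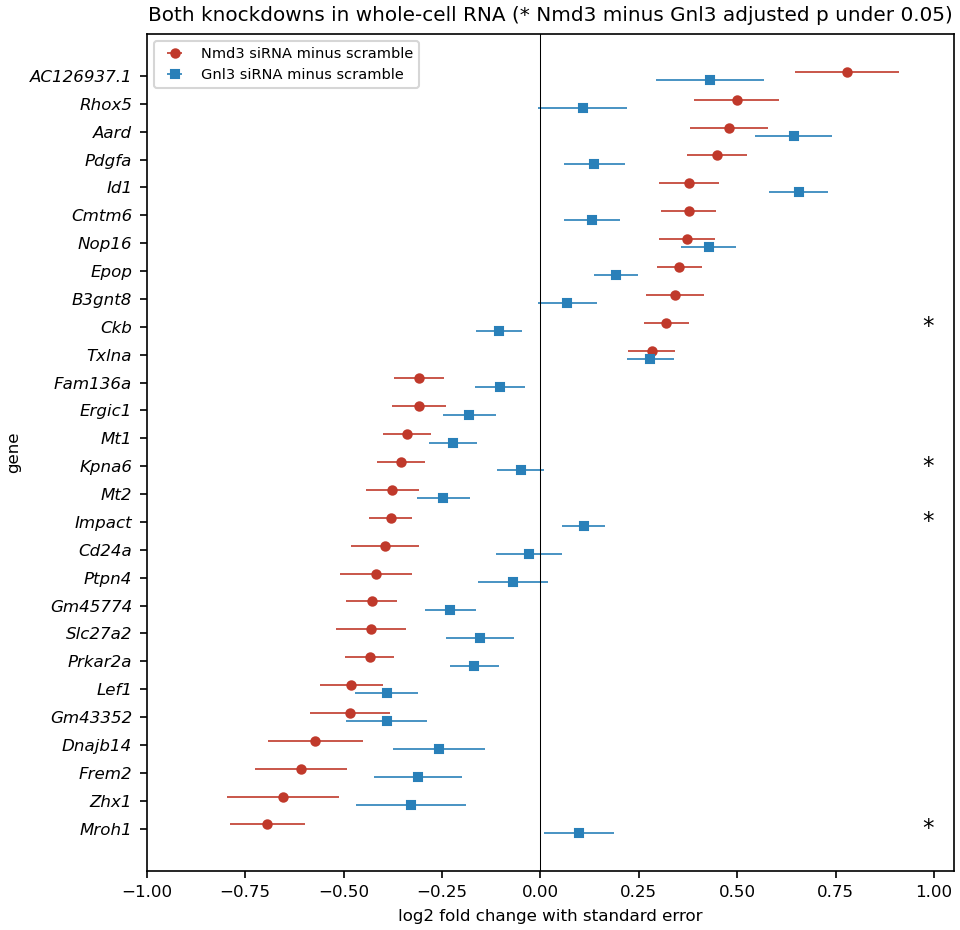
Log2 fold change against the shared scramble libraries (x axis, bars are standard errors) after Nmd3 siRNA and after Gnl3 siRNA for the 28 called genes other than Nmd3 (y axis), Nmd3 replicate 2 and Gnl3 replicate 3 left out. Asterisks mark Ckb, Kpna6, Impact and Mroh1, the genes whose direct difference between the knockdowns had an adjusted p under 0.05.

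Other genes differed between the knockdowns without being called against scramble after Nmd3 siRNA. Targets of p53 were among them, 5 of 50, all lower after Nmd3 siRNA than after Gnl3 siRNA, against 19 lower of 17490 genes (0.109%). Plk2, a polo-like kinase, was at 46.1, 39.5 and 51.3 CPM in scramble, at 48.5 and 50.5 CPM in Nmd3 replicates 1 and 3 and at 73.6 and 69.9 CPM in Gnl3 replicates 1 and 2. The Nmd3 values lay within the scramble range, and the difference between the knockdowns was -0.54 (SE 0.09, adjusted p = 0.00317). Trp53inp1 differed by -0.36 (SE 0.07, adjusted p = 0.0102), Perp by -0.42 (SE 0.08, adjusted p = 0.0126), Eda2r by -0.42 (SE 0.09, adjusted p = 0.0347) and Gtse1 by -0.29 (SE 0.06, adjusted p = 0.0379). Against scramble Plk2, Trp53inp1, Perp, Eda2r and Gtse1 differed by 0.11, 0.17, 0.22, -0.002 and -0.01 after Nmd3 siRNA. Trp53inp1 and Perp were above every scramble library in Nmd3 replicates 1 and 3, and the others overlapped scramble. On ER ribosomes Nmd3 siRNA called 3 of 50 p53 targets higher and 1 lower, against 97 and 81 of 18271 genes. Over the whole p53 list the median change was 0.06 after Nmd3 siRNA and 0.21 after Gnl3 siRNA, with 0 and 13 called higher, against 0.0629% and 0.515% of all genes.

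Some ATF4 targets of amino acid synthesis went the other way. Asns, which makes asparagine, was at 274.4, 297.5 and 275.1 CPM in scramble, at 318.8 and 308.7 CPM in Nmd3 replicates 1 and 3 and at 234.6 and 243.3 CPM in Gnl3 replicates 1 and 2. It was higher after Nmd3 siRNA than after Gnl3 siRNA by 0.38 (SE 0.06, adjusted p = 0.00188). Phgdh, the first enzyme of serine synthesis, differed by 0.38 (SE 0.07, adjusted p = 0.0166) and the alanine transaminase Gpt2 by 0.37 (SE 0.08, adjusted p = 0.0359). Outside the list, the mitochondrial enzyme Pck2 differed by 0.43 (SE 0.08, adjusted p = 0.00632). Against scramble Asns, Phgdh, Gpt2 and Pck2 differed by 0.15, 0.03, -0.05 and 0.04 after Nmd3 siRNA. Of 48 ATF4 targets 3 were higher and 0 lower in the direct contrast, against 0.103% and 0.109% of all genes, and the median change was -0.03 after Nmd3 siRNA and -0.21 after Gnl3 siRNA, with 0 and 14 called lower, against 0.103% and 0.297% of all genes. The pluripotency factors Prdm14 (0.49, SE 0.11, adjusted p = 0.0431) and Tfcp2l1 (0.32, SE 0.07, adjusted p = 0.0255) were also higher after Nmd3 siRNA than after Gnl3 siRNA.

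The same lysates gave RNA bound to ER ribosomes, in 3 libraries of Nmd3 siRNA and 2 of scramble (replicates 2 and 3). These are other libraries of the same lysates and no further replicates. Nmd3 was at 25.2, 24.1 and 25.2 CPM there against 123.7 and 120 CPM in scramble, a log2 difference of -2.29 (SE 0.06, adjusted p = 8.35e-26). The Nmd3 level of replicate 2 there was close to that of the others. Other genes did set it apart: Gnl3 was at 262.9 CPM in ER replicate 2, against 164.2 and 179.8 CPM in ER replicates 1 and 3. On ER ribosomes 178 of 18271 genes were called (0.974%), 97 higher and 81 lower, and 152 without ER replicate 2. Of the 28 genes called in whole-cell RNA besides Nmd3, 18 were called on ER ribosomes, all in the direction they had in whole-cell RNA.

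Mroh1 was at 25.6 and 26.2 CPM on scramble ER ribosomes and at 13.8, 16.2 and 12.5 CPM after Nmd3 siRNA (-0.86, SE 0.11, adjusted p = 3.87e-06). Impact was at 229.1 and 240.2 CPM against 161.5, 149.6 and 166.1 CPM (-0.56, SE 0.05, adjusted p = 8.45e-09). Prkar2a was at 77.2 and 79.2 CPM against 48.6, 48 and 54.1 CPM (-0.63, SE 0.06, adjusted p = 4.41e-08). In each, all 3 knockdown libraries lay below both scramble libraries. Cmtm6, which replicate 2 did not share in whole-cell RNA, was at 98.1 and 98.4 CPM against 147.4, 138.6 and 153.6 CPM, higher in all 3 (0.58, SE 0.06, adjusted p = 2.72e-07). Cd24a was at 73.1 and 71.8 CPM against 54.6, 51 and 55.4 CPM, lower in all 3 (-0.43, SE 0.07, adjusted p = 3.98e-04). Lef1 changed by -0.49 (SE 0.08), Nop16 by 0.37 (SE 0.06) and Pdgfa by 0.32 (SE 0.07) on ER ribosomes.

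Some genes called in whole-cell RNA were not called on ER ribosomes. Ptpn4 differed there by 0.01 (SE 0.13, adjusted p = 0.99), Id1 by 0.11 (SE 0.07, adjusted p = 0.597), Ergic1 by -0.12 (SE 0.06, adjusted p = 0.472) and Dnajb14 by -0.21 (SE 0.12, adjusted p = 0.542). The others were AC126937.1 (0.15, SE 0.14), Rhox5 (0.23, SE 0.1), B3gnt8 (0.24, SE 0.08), Slc27a2 (-0.25, SE 0.09), Aard (0.32, SE 0.09) and Frem2 (-0.35, SE 0.12). Whole-cell and ER libraries of the same lysate were fitted as independent, so the SEs and p-values of the next test ignore that pairing. The test of the difference in effect between whole-cell and ER ribosome-bound RNA called 0 of 18271 genes (0%) with edgeR, 1078 having an unadjusted p under 0.05, and DESeq2 called 2. Among the 28 genes these differences ran from -0.43 for Ptpn4 (SE 0.17, adjusted p = 0.79) to 0.62 for AC126937.1 (SE 0.21, adjusted p = 0.784). For Nmd3 the fall was smaller in whole-cell RNA by 0.47 (SE 0.09, unadjusted p = 4.19e-06, adjusted p = 0.0765). Without Nmd3 whole-cell replicate 3 the same test called 304 genes.

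**Figure D5:**
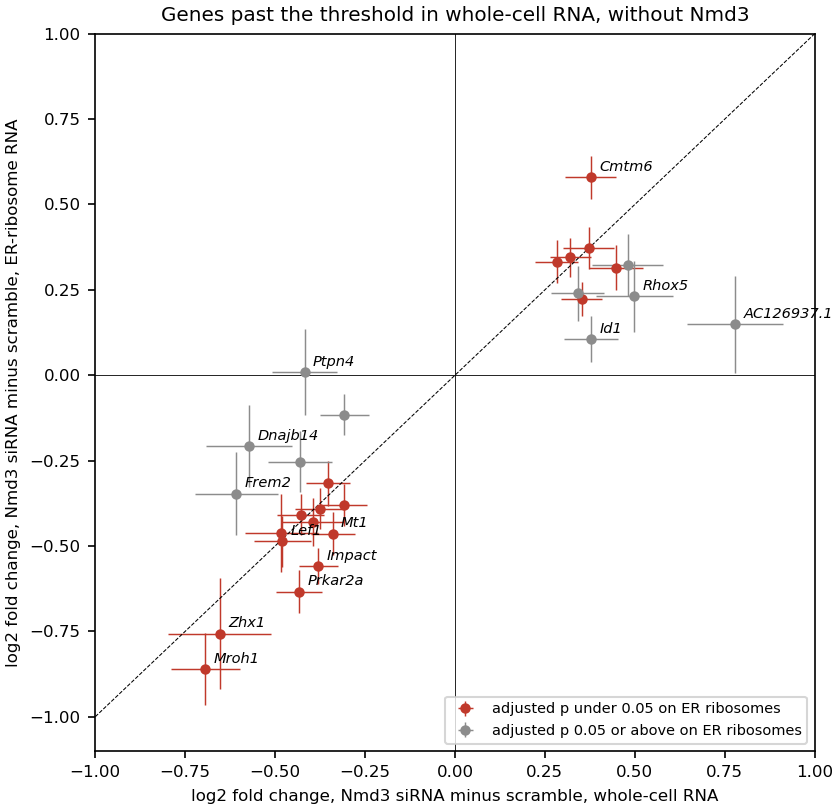
Log2 fold change of Nmd3 siRNA against scramble in whole-cell RNA (x axis) and in RNA on ER ribosomes (y axis), with standard errors, for the 28 called genes other than Nmd3. The dashed line marks equal change. The 18 genes also called on ER ribosomes, picked by a call in both fractions, have the same direction in both. On ER ribosomes they run from Mroh1 at -0.86 to Cmtm6 at 0.58, against -0.69 and 0.38 in whole-cell RNA.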

How the data were processed

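PolyA RNA was sequenced from whole-cell lysate and from ribosomes purified at the ER. The deposited files hold raw gene counts, made by the authors with STAR 2.7.9a and HTSeq 0.11.2 on GRCm39, per the submitters' processing notes. The strand setting of counting and the annotation release are not given in the sources used here. The HTSeq lines that name no gene were left out of totals. No feature was given for 46.7% to 48.4% of entries in the 6 libraries. Symbols, coding lengths and opposite-strand genes came from GENCODE M21 (GRCm38), which named 52135 of 55416 gene IDs, so no gene coordinates of the counts are given.

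Main tests used R 4.3.3 with edgeR 4.0.16: filterByExpr, TMM scaling, robust quasi-likelihood fit and Benjamini-Hochberg adjustment over all genes tested. The fit held 7 whole-cell libraries, including Gnl3 siRNA replicates 1 and 2 for the shared spread. The comparisons with ER ribosomes used the 15 libraries of both fractions without the excluded ones. The SE was derived from each fold change and its F statistic (size over root F). CPM were not TMM scaled. Alternatives were DESeq2 1.42.0, limma 3.58.1, other scalings and filters, a replicate block and leaving out each library. Of 1269 list entries, 1261 matched a symbol in the files, some through RefSeq synonyms.

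The members, lists and naming rule were chosen with earlier results of these data known. The rule names Nmd3 and its partners, the 10 largest called increases and decreases of named genes with at least 5 CPM, and up to 2 called members of a list. Mt1, Mt2, Kpna6, Fam136a, Ergic1, the antisense genes and the genes of the Gnl3 and ER comparisons outside the rule were chosen after their values were seen.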

Additional observations from a re-analysis of the deposited data

How the results depend on the processing

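The count of 29 genes was 31 with DESeq2, 28 with RLE size factors, 24 with library totals and 24 with a minimum mean of 5 CPM. It was 17 with only the scramble and Nmd3 libraries in the fit, all among the 29, and 115 without a filter on low counts. With Nmd3 replicate 2 in the fit it was 0, as it was with both excluded libraries, with only the 6 libraries, and with a replicate block besides (654, 393, 309 and 424 genes at an unadjusted p under 0.05). With replicate 2, DESeq2 called 1 and limma with quality weights 3, where replicate 2 had a weight of 0.03. These fits were chosen after seeing the data. Without each library in turn the count ranged from 8 to 1024. Mt1, Mt2 and Gm45774 were the called genes whose sign turned. They were at 0.66, 0.54 and 0.51 with replicate 2, 0.67, 0.54 and 0.51 with both excluded libraries, 0.67, 0.54 and 0.51 with only the 6 libraries, 0.404, 0.33 and 0.28 with the replicate block and replicate 2, and 0.67, 0.55 and 0.51 with DESeq2 and replicate 2. The cause was not tested. The other 26 kept their sign in every alternative.

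The replicate numbers were not taken to pair the libraries, since 1 of the 3 correlations was under 0.1. Residuals of scramble and Nmd3 libraries of the same number correlated at 0.07, 0.23 and 0.16 over all whole-cell libraries. The 0.23 is that of Nmd3 replicate 2. With the retained libraries only, the values were 0.002 for number 1 and 0.047 for number 3. The replicate block left 29 calls, 21 of them shared. It moved the difference between the knockdowns from 37 to 63 calls, and left the difference between fractions at 0 (1152 genes at an unadjusted p under 0.05). The difference between the knockdowns gave 0 calls with both excluded libraries, and 7 to 983 without 1 library. The difference between fractions gave 1 call with library totals, 2 with DESeq2 and 0 to 304 without 1 library. The cause was not tested. On ER ribosomes 152 genes were called without Nmd3 replicate 2, against 178. No alternative varied depth, so what depth limits was not tested.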
